A study of Homo sapiens with 9 samples.

Results

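The genes described here are 42 named genes from the end of the short arm of chromosome 8 (bands 8p23 to 8p22), out of 58884 genes in the count table. They were listed by symbol and chosen by their BrM2 vs LM2 values, since this block of neighbouring genes had lower counts in the brain metastatic sub-population than in the lung metastatic one. The BrM2 against LM2 difference therefore chose the members and is given as a description, with no test. All 42 genes were found in the table. They span chromosome 8, positions 406958 to 18223689 of GRCh38.p14 (17.8 Mb), from FBXO25 at the telomeric end to NAT1 at the centromeric end. Of these, 34 passed the filter on low counts and were tested. The description "lower in BrM2" held for the telomeric part of the block, and not for most of its centromeric end from MICU3 onwards, as given below.

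RNA-seq was performed on 3 related human breast cancer lines, with 3 replicates each. Par is the parental MDA-MB-231 line, a triple-negative line of the claudin-low type that came from a pleural effusion. LM2 and BrM2 are sub-populations of it that were selected in mice for colonizing the lung and the brain, respectively, so each is 1 selected population and its replicates are cultures of it. All 3 lines were grown as monolayers in DMEM with 10% FBS, with no treatment, and the replicates were harvested at different passages.

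Human chromosome 8 has a short arm, 8p, and a long arm, 8q, and carcinomas of the breast and of other organs often lose copies of distal 8p and gain copies of 8q. The telomeric part of 8p holds several genes studied as growth or migration suppressors, among them DLC1, TUSC3, MTUS1 and PINX1. Several others keep basic functions of the cell, such as lysosomal breakdown, protein glycosylation and telomere upkeep. Copy number was not analysed here, and its part in the values below was not tested.

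Counts on genes, in M (1e6), totalled 19.9 to 23.9 M per library in Par, 23.6 to 24.5 M in LM2 and 14.4 to 22.1 M in BrM2, the lowest being BrM2 replicate 1. Values are in CPM, counts on a gene per 1e6 counts after TMM scaling in edgeR. CPM are not divided by gene length, so levels are compared between lines and not between genes. The claudin-low markers VIM and CD44 summed to 1155 to 1666 CPM in Par, 1999 to 2722 CPM in LM2 and 1906 to 2612 CPM in BrM2. The 6 epithelial and luminal markers (CDH1, EPCAM, ESR1, CLDN3, CLDN4 and CLDN7) summed to 93.6 to 129.6 CPM in Par, 17.9 to 23.3 CPM in LM2 and 29.0 to 60.8 CPM in BrM2, with CDH1, which defines epithelial cells, at no more than 1.94 CPM. CLDN4 made up most of the difference, at 72.7 to 107 CPM in Par, 4.53 to 7.74 CPM in LM2 and 9.54 to 32.7 CPM in BrM2, while CLDN7 was at 11.8 to 22.3 CPM in BrM2 against 11.95 to 14.6 CPM in Par. The labels call the cells mammary epithelial. The 4 markers of leukocytes, endothelium and fat (PTPRC, PECAM1, VWF and ADIPOQ) summed to no more than 7.43 CPM in any library, and ADIPOQ was at 0 counts in all 9. Replicate 1 of every line deviated most from the mean of its line, by a median absolute deviation over all tested genes of 0.304 on the log2 scale in Par, 0.426 in BrM2 and 0.50 in LM2, against 0.13 to 0.301 in the other libraries, and counts of calls are therefore also given without it and with the replicate number as a block.

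BrM2 was the line that departed from Par over the block. The median log2 fold change of the 34 tested members was -0.66 in BrM2 vs Par (interquartile range -1.29 to -0.07), against -0.02 over all 13018 tested genes. In LM2 vs Par it was 0.15, against 0.01 over all tested genes. The contrast that chose the members, BrM2 vs LM2, had a median of -0.79. Values below 0 were found for 26 of the 34 members in BrM2 vs Par (51.5% of all tested genes), for 13 in LM2 vs Par (48.6%) and for 25 in BrM2 vs LM2 (52.3%), of which the last was fixed by the choice. These comparisons share libraries, since BrM2 vs Par uses the same BrM2 libraries and LM2 vs Par the same LM2 libraries as the contrast of choice, and their values are therefore set side by side and not counted as separate evidence. The heat map of every tested member by library shows the 3 BrM2 columns as the ones set apart, with the contrast ending at TUSC3.

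**Figure D1:**
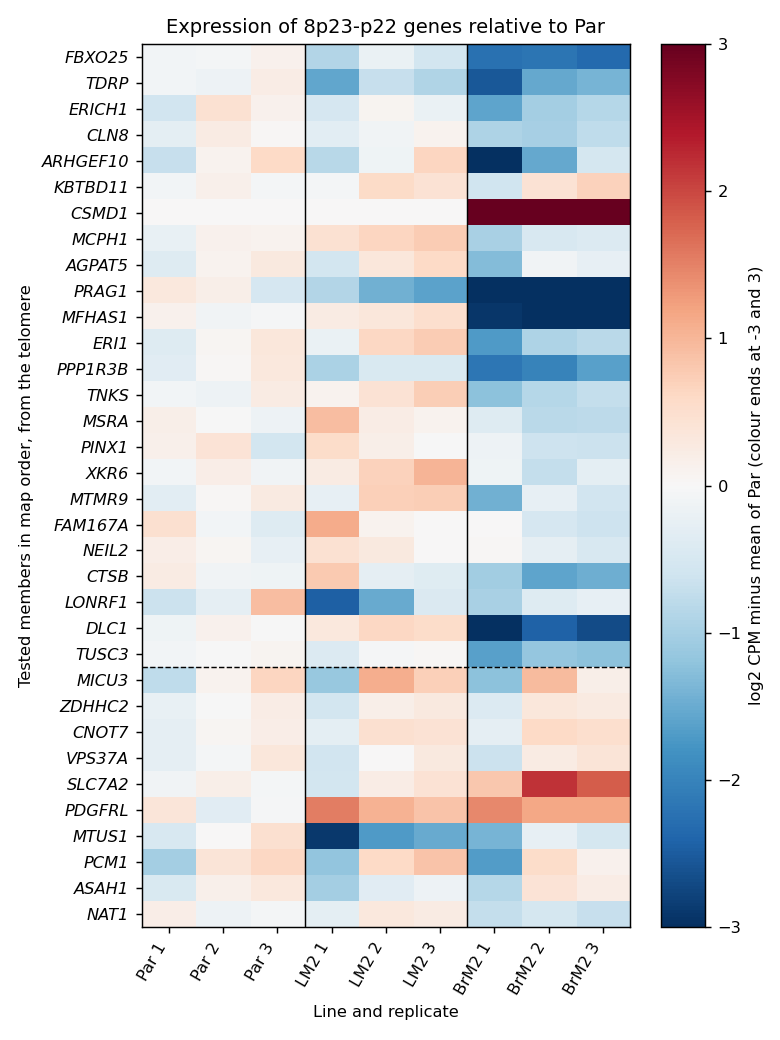
Expression of the 34 tested members (rows, in map order from the 8p telomere) in each of the 9 libraries (columns), as log2 CPM minus the mean of the 3 Par libraries; colours end at -3 and 3, and the dashed line lies after TUSC3. Above the line the BrM2 columns are mostly blue, with a fold change in BrM2 vs Par below 0 for 22 of 24 members (not for KBTBD11 and CSMD1), while the LM2 columns are mixed.

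In BrM2 vs Par, 11 of the 34 tested members fell (FBXO25, TDRP, ERICH1, CLN8, PRAG1, MFHAS1, PPP1R3B, TNKS, CTSB, DLC1 and TUSC3) and 3 rose (CSMD1, SLC7A2 and PDGFRL), at an edgeR adjusted p under 0.05. Of all tested genes, 7% fell and 6.24% rose. CSMD1 passed the filter only through its BrM2 counts, the line where it was high, so it had to differ and its test is not used. It is still counted in the totals of this comparison where it passed, and adds no evidence to them. With the replicate number as a block, 19 members fell and the same 3 rose, against 23.2% and 19.5% of all tested genes. The added members were ARHGEF10, MCPH1, AGPAT5, ERI1, MSRA, MTMR9, MTUS1 and NAT1. Without replicate 1 of all lines, 17 of the 31 members then tested fell, where 19.7% of all tested genes did, and CNOT7, SLC7A2 and PDGFRL rose, where 21% did. CSMD1 was not tested there. Without replicate 2 or without replicate 3 of all lines, 3 members passed in each case, all of them lower in BrM2, against 0.531% and 0.851% of all tested genes. Leaving out a single library among Par replicates 2 and 3 and BrM2 replicates 2 and 3 lowered the count from 14 to 8. The genes called among all tested genes went from 1723 to 991, 1115, 1039 and 933 in these fits. FBXO25, TDRP, PRAG1, MFHAS1, PPP1R3B, DLC1 and TUSC3 passed in all 9 fits that left out a single library.

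All 3 BrM2 libraries lay below all 3 Par libraries for 16 members, where 16.1% of all tested genes did so, and above them for 3 (15.2%). Within pairs of libraries with the same replicate number, BrM2 was below Par in 3 of 3 pairs for 24 members, where 33.8% of all tested genes were, and above it for 3 (29%). CSMD1, whose outcome was fixed by the filter, is among the 3 in both counts. LM2 was below Par in 3 of 3 pairs for 8 members (32.3%) and above it for 12 (29.4%). XKR6, which passed the filter only through LM2, is among the 12 and adds no evidence to them. BrM2 was below Par in every pair for 22 of the 24 tested members from FBXO25 to TUSC3.

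The shift in BrM2 was not uniform along the block. From FBXO25 to TUSC3, 24 of 28 listed members were tested, and the median of their BrM2 vs Par values was -0.92 on the log2 scale, which is 52.9% of the level in Par, with an interquartile range of -1.60 to -0.51. From MSR1 to NAT1, 10 of 14 listed members were tested, and their median was 0.07, or 105% of the level in Par. The position of this division was chosen after the values were seen, so no test is given for it. TUSC3 ends at position 15852091 and MICU3, the next tested member, starts at 17027238, with only MSR1 and FGF20 of the list between them. MSR1 and FGF20 were not tested, so the values do not place the division more closely. Setting CSMD1 to the lower bound of its rise left the medians of the 34 members and of the telomeric group at -0.66 and -0.92.

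The median telomeric shift in BrM2 was below 0 in each replicate. Differences on the log2 scale were first taken from the Par library of the same number. The BrM2 medians over the 24 telomeric members were then -1.07, -1.01 and -0.97 in replicates 1 to 3. For LM2 the same medians were 0.07, 0.09 and 0.26, with single members on both sides of 0. Against the mean of the Par libraries, the medians in replicates 1 to 3 were -1.27, -0.89 and -0.73 in BrM2. In LM2 they were -0.13, 0.14 and 0.07. For the 10 centromeric members the medians of BrM2 against the same-numbered Par library were -0.40, 0.33 and -0.03, and changed sign between replicates. Fold changes of single members ranged in BrM2 vs Par from -5.28 for PRAG1 to 0.29 for KBTBD11 among the 23 telomeric members other than CSMD1. Across the 33 tested members other than CSMD1, the Spearman correlation of the BrM2 vs Par fold change with the mean log2 CPM was 0.01, over genes that share the same libraries and are not independent.

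**Figure D2:**
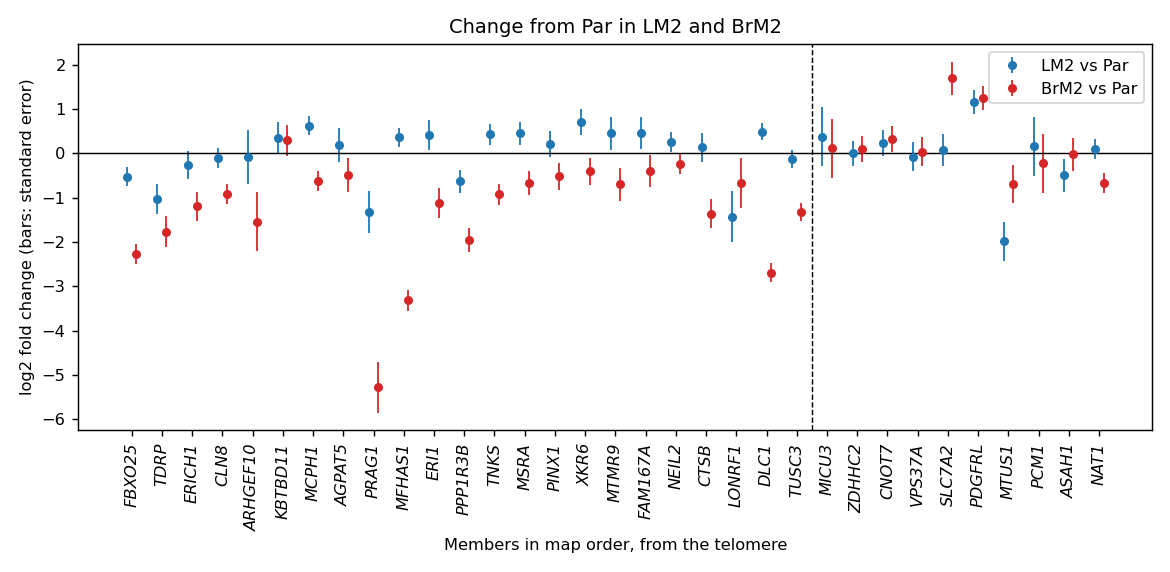
Log2 fold change in LM2 vs Par (blue) and BrM2 vs Par (red) for 33 tested members in map order from the telomere, as the edgeR estimate with its standard error over 3 replicates per line; CSMD1, with no counts in Par, is left out, and the dashed line lies after TUSC3. Red points lie under 0 from FBXO25 to TUSC3 for all but KBTBD11, while blue points scatter around 0, and MTUS1 is the lowest blue point at -1.98.

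The genes of cytoskeletal signalling held the 3 largest falls in BrM2 vs Par. All 5 (DLC1, ARHGEF10, PRAG1, MFHAS1 and MTUS1) had a log2 fold change below 0 in BrM2 vs Par, with a median of -2.69, and 3 of them fell. DLC1 (positions 13083361 to 13604620) encodes a regulator of the actin cytoskeleton and cell migration. It measured 118, 142 and 128 CPM in Par, 159.8, 199 and 189 CPM in LM2 and 15.9, 24.1 and 20.04 CPM in BrM2. The BrM2 libraries lay far below all others, and the LM2 libraries lay above all Par libraries. DLC1 fell 6.47-fold in BrM2 vs Par, with a log2 fold change of -2.69 ± 0.21 (SE) and edgeR adjusted p = 0.00013, and in LM2 vs Par the value was 0.49 ± 0.20 (SE) (edgeR adjusted p = 0.2, and adjusted p = 0.0061 with the replicate block).

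PRAG1 (positions 8317736 to 8386439), a pseudokinase scaffold, measured 118, 108 and 67.4 CPM in Par, 51.8, 34.9 and 31.3 CPM in LM2 and 4.94, 1.5 and 1.29 CPM in BrM2. The groups did not overlap, and LM2 lay between Par and BrM2. PRAG1 fell 38.8-fold in BrM2 vs Par, the largest fall among the tested members (-5.28 ± 0.57 (SE) on the log2 scale, edgeR adjusted p = 0.00051). In LM2 vs Par its log2 fold change was -1.31 ± 0.48 (SE) (edgeR adjusted p = 0.15, and adjusted p = 0.00084 with the replicate block). MFHAS1 (positions 8783354 to 8893630), a leucine-rich repeat protein with a GTP-binding domain that follows PRAG1 in the map order of the list, measured 26.7, 23 and 24.2 CPM in Par, 29.1, 31.1 and 35.1 CPM in LM2 and 3.17, 1.99 and 2.3 CPM in BrM2. Here LM2 lay above Par and BrM2 below it in every library. MFHAS1 fell 9.96-fold in BrM2 vs Par (-3.32 ± 0.24 (SE), edgeR adjusted p = 8.7e-05).

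ARHGEF10, a guanine nucleotide exchange factor, had few counts, at most 2.95 CPM, and it had a value in BrM2 vs Par of -1.54 ± 0.66 (SE) (edgeR adjusted p = 0.19, and adjusted p = 0.0019 with the replicate block). MTUS1 encodes a microtubule-associated protein. It measured 17.2, 23.9 and 33.3 CPM in Par, 3.13, 7.35 and 8.28 CPM in LM2 and 9.07, 20.3 and 16.5 CPM in BrM2. The LM2 libraries were all below the Par and BrM2 libraries. MTUS1 fell 3.96-fold in LM2 vs Par (-1.98 ± 0.45 (SE), edgeR adjusted p = 0.026), and its value in BrM2 vs Par was -0.69 ± 0.43 (SE) (edgeR adjusted p = 0.39, and adjusted p = 0.0086 with the replicate block). The LM2 call held in 5 of 9 fits with a library left out, and failed without Par replicate 2 or 3 or LM2 replicate 2 or 3. MTUS1 overlaps PDGFRL on the opposite strand, and the counted strand is not stated, so the division of reads between the 2 genes is uncertain.

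**Figure D3:**
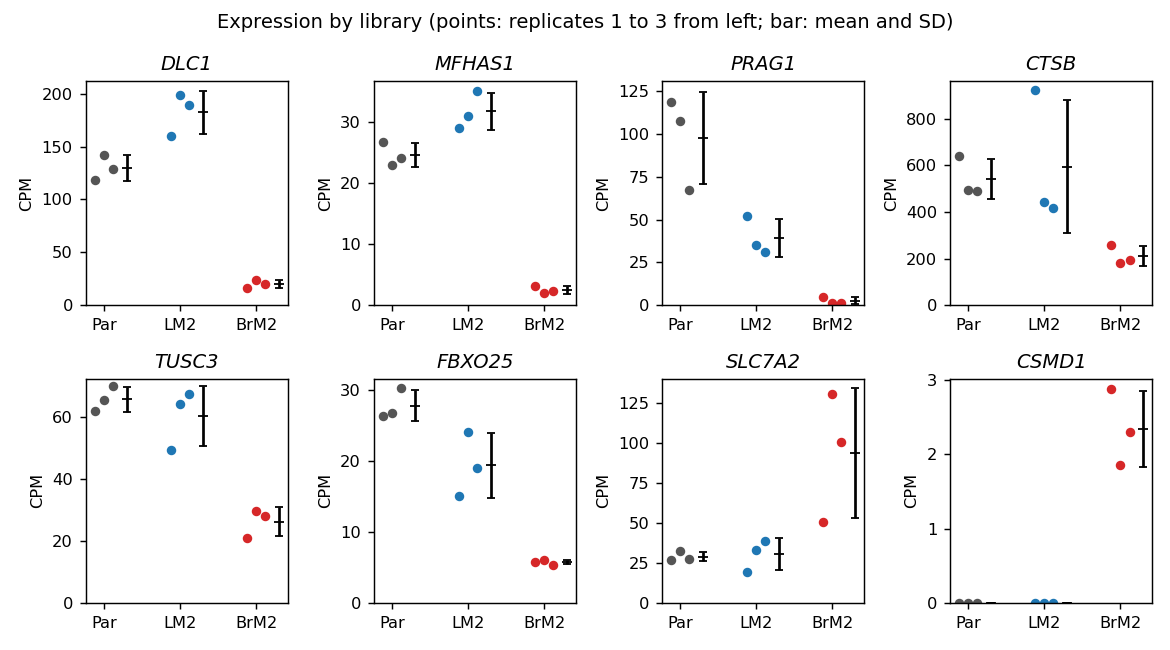
CPM of 8 members in each library (points, replicates 1 to 3 from left to right within a line), with the mean and SD of the 3 replicates as a black bar beside them; all axes start at 0. BrM2 lies below Par for the first 6 genes and above it for SLC7A2 and CSMD1, and DLC1 and MFHAS1 are higher in LM2 than in Par in all 3 libraries.

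Among the 7 genes grouped under lysosome, lipid and membrane, 2 fell in BrM2 vs Par (CTSB and CLN8). CTSB encodes cathepsin B, a lysosomal cysteine protease that tumour cells can also secrete. It measured 639, 497 and 489 CPM in Par, 925, 443 and 418 CPM in LM2 and 259, 179.6 and 195 CPM in BrM2. All BrM2 libraries lay below the lowest Par and LM2 library, and LM2 replicate 1 was far above the other LM2 libraries. CTSB fell 2.56-fold in BrM2 vs Par (-1.36 ± 0.33 (SE), edgeR adjusted p = 0.025), and its LM2 vs Par value was 0.14 ± 0.32 (SE) (edgeR adjusted p = 0.9). It passed in 4 of the 9 fits that left out a single library, and failed without Par replicate 1, 2 or 3 and without BrM2 replicate 2 or 3.

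CLN8, a membrane protein that helps to bring lysosomal enzymes out of the endoplasmic reticulum, measured 9.72, 14.2 and 12.3 CPM in Par, 9.63, 11.1 and 12.9 CPM in LM2 and 6.27, 5.92 and 7.05 CPM in BrM2. The BrM2 values lay below all others and those of Par and LM2 overlapped. CLN8 fell 1.88-fold (-0.91 ± 0.22 (SE), edgeR adjusted p = 0.027), and passed in 3 of 9 fits with a library left out, those without Par replicate 1, LM2 replicate 1 or LM2 replicate 3. An antisense gene that was also counted overlaps CLN8, whose counts are uncertain for that reason. ASAH1, the acid ceramidase of the lysosome, measured 30.2, 45.6 and 51.2 CPM in Par, 20.3, 32.8 and 37.2 CPM in LM2 and 22.6, 54.7 and 47.9 CPM in BrM2. BrM2 overlapped Par, with a log2 fold change of -0.02 ± 0.37 (SE) (edgeR adjusted p = 0.99), and the LM2 vs Par value was -0.49 ± 0.37 (SE) (edgeR adjusted p = 0.56, and adjusted p = 0.02 with the replicate block).

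The 4 remaining members of this group did not pass in BrM2 vs Par without the block. AGPAT5, an enzyme of phospholipid synthesis, had a log2 fold change of -0.49 ± 0.39 (SE) (edgeR adjusted p = 0.52, and adjusted p = 0.013 with the replicate block). ZDHHC2, which attaches palmitate to proteins, measured 37, 42.7 and 50.4 CPM in Par, 29.2, 48.2 and 52.6 CPM in LM2 and 32.2, 54.8 and 51.8 CPM in BrM2, and VPS37A, a subunit of the ESCRT-I sorting complex, measured 21.5, 24.7 and 32.8 CPM in Par, 17.5, 26 and 31.7 CPM in LM2 and 16.4, 30.6 and 34.1 CPM in BrM2. Replicate 1 was the lowest library of each line for both genes, and the lines overlapped. LONRF1, a RING finger protein, measured 3.36, 4.36 and 10.1 CPM in Par, 0.893, 1.8 and 3.91 CPM in LM2 and 2.65, 4.06 and 4.46 CPM in BrM2. Its LM2 libraries overlapped those of both other lines, with a log2 fold change in LM2 vs Par of -1.43 ± 0.57 (SE) (edgeR adjusted p = 0.2, and adjusted p = 0.0018 with the replicate block), and its value in BrM2 vs LM2 was 0.75 ± 0.57 (SE), above 0 as in no other telomeric member but CSMD1. Its replicates spread more than 2-fold within Par and LM2.

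In the group of glycosylation, transport and metabolism, PPP1R3B and TUSC3 fell in BrM2 vs Par and SLC7A2 rose, of 6 tested. PPP1R3B, which targets protein phosphatase 1 to glycogen, measured 14.7, 19.2 and 23.3 CPM in Par, 9.68, 13.6 and 13.7 CPM in LM2 and 4.13, 4.64 and 6.04 CPM in BrM2. The 3 lines did not overlap, with LM2 between Par and BrM2. It fell 3.85-fold in BrM2 (-1.95 ± 0.27 (SE), edgeR adjusted p = 0.0018), and its value in LM2 vs Par was -0.63 ± 0.26 (SE) (edgeR adjusted p = 0.21, and adjusted p = 0.0067 with the replicate block). TUSC3, a subunit of the oligosaccharyltransferase complex that glycosylates proteins, measured 61.8, 65.5 and 69.9 CPM in Par, 49.4, 64.1 and 67.3 CPM in LM2 and 21.1, 29.5 and 28.1 CPM in BrM2. BrM2 lay below both other lines, which overlapped. TUSC3 fell 2.5-fold in BrM2 (-1.32 ± 0.21 (SE), edgeR adjusted p = 0.0032) and had a value of -0.12 ± 0.20 (SE) in LM2 vs Par (edgeR adjusted p = 0.84).

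MSRA, which repairs oxidized methionine, had a log2 fold change of -0.66 ± 0.26 (SE) in BrM2 vs Par (edgeR adjusted p = 0.16, and adjusted p = 0.0047 with the replicate block), with all 3 BrM2 libraries below all Par libraries. NAT1, an arylamine acetyltransferase at the centromeric end of the block, also had all BrM2 libraries below all Par libraries, at 5.6, 6.36 and 5.7 CPM against 10.7, 8.38 and 8.89 CPM. Its log2 fold change was -0.66 ± 0.23 (SE) (edgeR adjusted p = 0.1, and adjusted p = 0.02 with the replicate block). MICU3, a regulator of mitochondrial calcium uptake, varied from 1.47 to 7.06 CPM within BrM2 alone, and its value was 0.12 ± 0.67 (SE) (edgeR adjusted p = 0.96).

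Among the 7 genes of genome maintenance, the telomere, the centrosome and RNA, TNKS fell in BrM2 vs Par. TNKS, the poly-ADP-ribose polymerase tankyrase, measured 30.05, 28.7 and 37.9 CPM in Par, 34.2, 43.3 and 53.4 CPM in LM2 and 13.6, 17.7 and 19.6 CPM in BrM2. BrM2 lay below all Par and LM2 libraries. The fall was 1.9-fold (-0.93 ± 0.24 (SE), edgeR adjusted p = 0.034), and it passed in 2 of 9 fits with a library left out, those without LM2 replicate 1 or LM2 replicate 3. ERI1, an RNA exonuclease of histone mRNA and ribosomal RNA processing, had a value of -1.13 ± 0.34 (SE) (edgeR adjusted p = 0.063, and adjusted p = 4.2e-05 with the replicate block). MCPH1, a protein of the DNA damage response and chromosome condensation, measured 12.3, 15.7 and 15.5 CPM in Par, 19.95, 22.7 and 24.6 CPM in LM2 and 7.3, 10.3 and 10.8 CPM in BrM2. Every LM2 library was above and every BrM2 library below the Par libraries, with log2 fold changes of -0.62 ± 0.22 (SE) in BrM2 vs Par (edgeR adjusted p = 0.12, and adjusted p = 0.0045 with the replicate block) and 0.63 ± 0.22 (SE) in LM2 vs Par (edgeR adjusted p = 0.14, and adjusted p = 0.0046 with the replicate block). MCPH1 overlaps counted antisense genes, and its counts are uncertain for that reason.

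PINX1, an inhibitor of telomerase, measured 6.15, 7.36 and 3.77 CPM in Par, 8.14, 6.33 and 5.52 CPM in LM2 and 5.01, 3.58 and 3.5 CPM in BrM2. Par and BrM2 overlapped and the value of -0.52 ± 0.31 (SE) did not pass (edgeR adjusted p = 0.36, and adjusted p = 0.08 with the replicate block). A second table row with the symbol PINX1 was at 0 in all libraries, and 14.9% of the 50-base stretches of PINX1 transcripts also occurred in another gene. NEIL2, a DNA glycosylase of base excision repair, had the smallest shift below 0 of the telomeric members, -0.24 ± 0.23 (SE) (edgeR adjusted p = 0.62). CNOT7, a deadenylase of the CCR4-NOT complex, measured 61.1, 76.8 and 84.3 CPM in Par, 60.4, 103 and 98.8 CPM in LM2 and 61, 112 and 104 CPM in BrM2, and PCM1, a scaffold protein of centriolar satellites, measured 38.4, 101 and 119 CPM in Par, 34.1, 116 and 139 CPM in LM2 and 24, 113 and 84.8 CPM in BrM2. Replicate 1 was the lowest library of every line for both genes, by far so for PCM1, and the log2 fold changes of 0.32 ± 0.29 (SE) and -0.22 ± 0.67 (SE) did not pass (edgeR adjusted p = 0.6 and 0.91). Without replicate 1 of all lines CNOT7 passed, at 0.43 in BrM2 vs Par (edgeR adjusted p = 0.012) and 0.33 in LM2 vs Par (edgeR adjusted p = 0.042).

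FBXO25, TDRP and ERICH1, the 3 members nearest to the telomere, fell in BrM2 vs Par. FBXO25, the substrate receptor of an SCF ubiquitin ligase, measured 26.4, 26.8 and 30.4 CPM in Par, 15.1, 24.2 and 19 CPM in LM2 and 5.83, 6.005 and 5.42 CPM in BrM2. It fell 4.84-fold in BrM2 vs Par (-2.28 ± 0.23 (SE), edgeR adjusted p = 0.00032), and all LM2 libraries also lay below all Par libraries, with a value of -0.52 ± 0.21 (SE) (edgeR adjusted p = 0.21, and adjusted p = 0.024 with the replicate block). Its neighbour TDRP, a nuclear protein known from spermatogenesis, measured 13.1, 12.5 and 16.2 CPM in Par, 4.67, 8.53 and 7.36 CPM in LM2 and 2.29, 4.72 and 5.18 CPM in BrM2. It fell 3.4-fold in BrM2 (-1.77 ± 0.35 (SE), edgeR adjusted p = 0.011), and in LM2 the value was -1.02 ± 0.34 (SE) (edgeR adjusted p = 0.12, and adjusted p = 0.0031 with the replicate block). ERICH1, a glutamate-rich protein of unclear role, measured 7.46, 15.3 and 12.3 CPM in Par, 7.89, 11.8 and 9.74 CPM in LM2 and 3.69, 5.48 and 6.14 CPM in BrM2 and fell 2.28-fold in BrM2 (-1.19 ± 0.32 (SE), edgeR adjusted p = 0.042). It passed in 2 of 9 fits with a library left out, those without Par replicate 1 or LM2 replicate 1.

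MTMR9, a catalytically inactive member of the myotubularin phosphoinositide phosphatases, had a value of -0.69 ± 0.37 (SE) in BrM2 vs Par (edgeR adjusted p = 0.31, and adjusted p = 0.0078 with the replicate block). XKR6, of the XK-related membrane protein family, and FAM167A had values of -0.40 ± 0.30 (SE) and -0.40 ± 0.37 (SE), and neither passed with or without the block. XKR6 passed the filter on low counts only through LM2. KBTBD11, a Kelch and BTB domain protein that can serve as a ubiquitin ligase adaptor, was the single member of the telomeric group with counts in all 3 lines and a value above 0, at 0.29 ± 0.35 (SE) (edgeR adjusted p = 0.71), and its BrM2 vs LM2 value was -0.06 ± 0.35 (SE).

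Against the direction of the block, CSMD1, SLC7A2 and PDGFRL were higher in BrM2 than in Par. CSMD1, a large membrane protein with complement control domains, lies inside the telomeric group and had 0 counts in all 6 Par and LM2 libraries and 39, 42 and 48 counts in the BrM2 libraries. Taking 3 counts per library as the floor, CSMD1 was at least 16.7-fold higher in BrM2 than in Par and at least 18.2-fold higher than in LM2, which is given as a description, since the gene was tested only through these BrM2 counts. SLC7A2, a transporter of arginine and other cationic amino acids, measured 26.7, 32.2 and 27.5 CPM in Par, 19.6, 33.3 and 38.7 CPM in LM2 and 50.2, 130.3 and 101 CPM in BrM2. BrM2 lay above all Par and LM2 libraries, which overlapped. SLC7A2 rose 3.25-fold in BrM2 vs Par (1.70 ± 0.37 (SE), edgeR adjusted p = 0.017) and had a value of 0.08 ± 0.36 (SE) in LM2 vs Par (edgeR adjusted p = 0.95). It passed in 4 of 9 fits with a library left out, and failed without Par replicate 1, 2 or 3 and without BrM2 replicate 2 or 3.

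PDGFRL, a secreted protein with sequence similarity to the PDGF receptor, measured 4.52, 2.76 and 3.42 CPM in Par, 10.2, 7.31 and 6.44 CPM in LM2 and 9.59, 7.95 and 7.91 CPM in BrM2. LM2 and BrM2 both lay above Par and overlapped each other. PDGFRL rose 2.38-fold in BrM2 (1.25 ± 0.27 (SE), edgeR adjusted p = 0.016) and 2.24-fold in LM2 (1.16 ± 0.27 (SE), edgeR adjusted p = 0.03). It failed in BrM2 vs Par without Par replicate 2 or 3 or BrM2 replicate 2 or 3, and in LM2 vs Par also without LM2 replicate 1 or 2. The overlap with MTUS1 on the other strand applies to this value too.

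In LM2 vs Par, 1 of the 34 tested members fell (MTUS1) and 1 rose (PDGFRL), where 4.51% of all tested genes fell and 4.16% rose. With the replicate block, 7 members fell (FBXO25, TDRP, PRAG1, PPP1R3B, LONRF1, MTUS1 and ASAH1) and 7 rose (MCPH1, ERI1, TNKS, MSRA, FAM167A, DLC1 and PDGFRL), against 19% and 15.5% of all tested genes. Without replicate 1, 5 of 31 tested members fell and 8 rose, against 17.5% and 16.4% of all tested genes. The count of 2 went to 0 without Par replicate 2, Par replicate 3 or LM2 replicate 2, to 1 without LM2 replicate 1, LM2 replicate 3, BrM2 replicate 2 or BrM2 replicate 3, and to 4 without BrM2 replicate 1. In the same order, the 1129 genes called among all tested genes went to 634, 705 and 589, to 1206, 689, 963 and 842, and to 1239. All LM2 libraries lay below all Par libraries for 5 members (13.3% of all tested genes) and above them for 5 (11.8%). XKR6, which passed the filter on low counts only through LM2, is among the 5 above and adds no evidence to them. LM2 had members on either side of Par, and the choice by low BrM2 vs LM2 values favours members that are high in LM2. In LM2 vs Par, 25 of 34 log2 fold changes lay within 0.5 of 0, near the 67.9% of all tested genes. CSMD1, with no counts in either line, was among the 25. In BrM2 vs Par, 11 of 34 log2 fold changes lay within 0.5 of 0, against 62.9%.

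The mean of BrM2 and LM2 against Par is a contrast orthogonal to the difference that chose the members. In it, 8 members fell (FBXO25, TDRP, PRAG1, MFHAS1, PPP1R3B, DLC1, TUSC3 and MTUS1), and PDGFRL rose, where 6.98% of all tested genes fell and 4.83% rose. With the replicate block 14 fell and 2 rose, against 22.2% and 17.5%. FBXO25 (-1.40 ± 0.18 (SE), edgeR adjusted p = 0.0012), PRAG1 (-3.30 ± 0.40 (SE), edgeR adjusted p = 0.00098) and PPP1R3B (-1.29 ± 0.22 (SE), edgeR adjusted p = 0.005) had values below 0 in either line. For MFHAS1 (-1.47 ± 0.18 (SE), edgeR adjusted p = 0.00098) and DLC1 (-1.10 ± 0.17 (SE), edgeR adjusted p = 0.0029) the mean joined values of opposite sign, and the fall in BrM2 was the larger. The median over the members was -0.20. With a library left out, MTUS1 passed in 2 of 9 fits, TUSC3 in 4, PDGFRL in 7, TDRP in 8 and the other 5 in all. The count of 9 went to 5 without Par replicate 3 and to 6 without Par replicate 2, to 14 without replicate 1 of all lines (11 lower and 3 higher, against 20.1% and 19.7% of all tested genes), to 0 without replicate 2 of all lines and to 1 without replicate 3. The 1538 genes called among all tested genes went to 954 without Par replicate 3, 821 without Par replicate 2 and 144 without replicate 2 of all lines.

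The genes around the members were compared on the same scale. Of the tested genes with a known position, 7 lie within the same stretch without being on the list, and all 7 were below 0 in BrM2 vs Par, with a median log2 fold change of -1.25. The 3 that fell were FAM86B3P, CLDN23 and FDFT1, named here after their values were seen, where 7% of all tested genes fell. FDFT1, the squalene synthase of cholesterol synthesis, measured 199.7, 183 and 243 CPM in Par, 376, 177 and 176 CPM in LM2 and 111, 64.2 and 87.8 CPM in BrM2 (-1.25 ± 0.34 (SE), edgeR adjusted p = 0.041). CLDN23, a claudin gene beside MFHAS1, had values of -4.27 ± 0.34 (SE) in BrM2 vs Par (edgeR adjusted p = 0.00014) and -1.20 ± 0.27 (SE) in LM2 vs Par (edgeR adjusted p = 0.027). FAM86B3P belongs to a family of near-identical copies, and its value of -3.64 ± 0.50 (SE) (edgeR adjusted p = 0.0017) is uncertain.

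Beyond NAT1, the nearest tested genes were PSD3, SH2D4A and CSGALNACT1. PSD3 and SH2D4A had log2 fold changes of -0.31 ± 0.43 (SE) and -0.33 ± 0.20 (SE) in BrM2 vs Par (edgeR adjusted p = 0.75 and 0.36). CSGALNACT1, which starts chondroitin sulfate chains, fell in both sub-populations, with log2 fold changes of -2.62 ± 0.24 (SE) in BrM2 and -1.81 ± 0.24 (SE) in LM2 (edgeR adjusted p = 0.00025 and 0.0018). The 111 tested genes of the rest of 8p on the centromeric side had a median of 0.08 in BrM2 vs Par, and 12 of them fell and 4 rose. The 268 tested genes of 8q had a median of 0.20, with 6 falling and 22 rising. Over all tested genes, 7% fell and 6.24% rose in BrM2 vs Par. The plot of chromosome 8 shows the telomeric members and their neighbours mostly under 0 in BrM2 and on both sides of 0 in LM2. In LM2 vs Par the telomeric members ranged from -1.43 to 0.71 and the 7 other genes of the stretch from -1.31 to 0.96. On the rest of 8p the plot shows single genes that are low in either line.

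**Figure D4:**
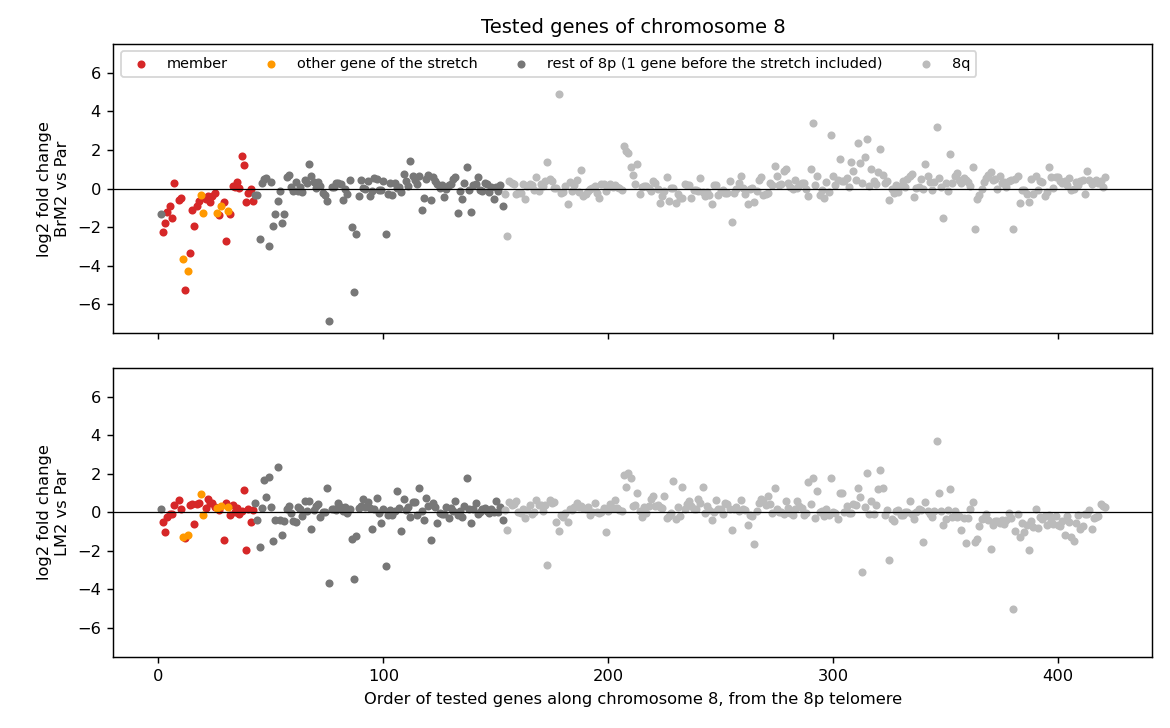
Log2 fold change of each tested gene of chromosome 8 with a known position, in order from the 8p telomere, for BrM2 vs Par (top) and LM2 vs Par (bottom); red points are members, orange points are other genes of the same stretch, and CSMD1 is left out. In the top panel the red and orange points at the left lie mostly under 0, with medians of -0.66 for the members and -1.25 for the others, while the rest of 8p centres on 0.08.

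The 8 members that were not tested had few or no counts. GATA4, a transcription factor of heart and gut, had 0 counts in all 9 libraries. SOX7, a transcription factor of endothelium, had 5 to 8 counts in Par, 5 to 10 in LM2 and 0 to 4 in BrM2. For SOX7, 38.9% of the 50-base stretches of its transcripts also occur in another gene, so even these counts are uncertain. FGL1, a fibrinogen-like protein of the liver, had 1 count in 1 Par library and 0 elsewhere. ANGPT2, a ligand of the endothelial receptor TIE2, had 2 to 9 counts in Par, 0 to 7 in LM2 and 0 to 2 in BrM2. MSR1, a macrophage scavenger receptor, had 3, 10 and 5 counts in Par and 0, 4 and 8 in LM2. In BrM2, MSR1 had 0, 0 and 1. FGF20, a growth factor, had 0 counts in Par, 1, 2 and 4 in LM2 and 2 in each BrM2 library. MYOM2, a protein of the muscle sarcomere, had 18, 22 and 20 counts in Par, 32, 38 and 50 in LM2 and 13, 36 and 36 in BrM2. MTMR7, a myotubularin phosphatase, had 6 to 18 counts in Par, 14 to 45 in LM2 and 15 to 46 in BrM2, and overlaps VPS37A on the opposite strand. The members with under 11 counts were not tested, and no result is drawn from their counts.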

How the data were processed

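RNA-seq was performed by the authors on Par, LM2 and BrM2, with 3 replicates per line harvested at different passages, using stranded mRNA libraries and paired-end sequencing. Per the labels and the study's methods, reads were aligned to hg38 and counted per gene with STAR 2.7.0, and the authors deposited counts without normalization. The counted strand is not given in the sources used here. The authors' second table holds log2 fold changes and adjusted p-values of their DESeq2 comparisons and was not used.

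Of 58887 rows, 3 repeated an identifier with identical counts and were kept once. A filter written after HTSFilter kept 13018 genes, those reaching a normalized count above 47.15 in at least 1 library, with 99.64% to 99.77% of the counts of each library. All 9 libraries were fitted together in edgeR 4.0.16 (R 4.3.3) with TMM normalization and the 2-sided quasi-likelihood test, and p-values were adjusted over all tested genes by the Benjamini-Hochberg method at a threshold of 0.05. Since replicates are passages of 1 population, p-values measure the spread between passages. A line with all libraries at 0 was set to a floor of 3 counts per library, which covers counting error only, and log2 CPM used a prior count of 2. Positions came from RefSeq (GRCh38.p14) by Ensembl identifier, or by a unique symbol where no identifier matched, for 92.9% of tested genes. Overlaps and shared 50-base stretches came from a GRCh37-mapped annotation. The tests were tried on simulated data.

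Replicate numbers in the labels were checked as pairs. Deviations from the line means correlated between same-numbered libraries of different lines at 0.23 to 0.90 in all 9 pairs. Libraries with different numbers were not compared in this way, and the labels do not say that equal numbers share a passage or day. Deviations sum to 0 over the 3 libraries of a line. With all 9 pairs above 0, covariances between differently numbered libraries must therefore average below 0. Same-numbered libraries thus varied together more than differently numbered ones on average, though what they share is not known. The block and the counts of same-numbered pairs rest on reading the numbers as pairs. The main fit had no block, and the fit with it is given as the alternative. Adding the block lowered the common dispersion from 0.11 to 0.021.

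The members and gene lists were chosen with earlier results of these data known. Values in every library are given for members past the threshold, members above 0 in BrM2 vs LM2, the 5 tested members with most CPM, and DLC1, TUSC3, MTUS1, PINX1, CTSB, ASAH1, GATA4 and SOX7. Alternatives were other scaling, other filters, DESeq2 1.42.0, the block and leaving out libraries.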

Additional observations from a re-analysis of the deposited data

Results flagged for a closer look

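In 4 members every LM2 library lay above and every BrM2 library below every Par library. They were MFHAS1, with a log2 fold change of -3.68 in BrM2 vs LM2, DLC1 with -3.19, MCPH1 with -1.24 and XKR6 with -1.11. In LM2 vs Par none of the 4 passed without the replicate block (edgeR adjusted p = 0.14 to 0.41), and DLC1 and MCPH1 passed with it (adjusted p = 0.0061 and 0.0046). In BrM2 vs Par, MFHAS1 and DLC1 passed without the block. The difference between the lines was not tested, since it is the contrast that chose the members. Among all 13018 tested genes, 141 (1.08%) had this order of libraries. The order needs BrM2 below LM2, by which the members were chosen, so the 4 members cannot be read against that share. XKR6 reached the filter on low counts only through LM2, and MCPH1 overlaps antisense genes that were counted.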

How the results depend on the processing

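The block with the replicate number raised the members called from 14 to 22 in BrM2 vs Par, from 2 to 14 in LM2 vs Par and from 9 to 16 for the mean of both, and the genes called to 5557, 4491 and 5166, and to 4887 in BrM2 vs LM2, against 1723, 1129, 1538 and 1055 without it. The 14 and the 22 in BrM2 vs Par include CSMD1, whose test is not used. With the block and without replicate 1, a setting added after seeing the data, 17, 12 and 15 members passed, of 4389, 3371 and 4150 genes, and 3420 genes passed in BrM2 vs LM2. Leaving out replicates gave 3 to 20 members in BrM2 vs Par, 0 to 13 in LM2 vs Par and 0 to 14 for the mean, of 176 to 4832, 72 to 4033 and 144 to 4735 genes, and 53 to 3896 genes in BrM2 vs LM2. The highest counts came without replicate 1 and the lowest without replicate 2, those of 3 and 0 members in BrM2 vs Par and LM2 vs Par also without replicate 3. DESeq2 called 5 members in LM2 vs Par, with 1886 genes, and 1817 genes in BrM2 vs LM2.

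The medians of log2 fold changes moved less. With replicates left out, that of the members ranged from -0.71 to -0.55 in BrM2 vs Par, from 0.011 to 0.25 in LM2 vs Par and from -0.92 to -0.76 in BrM2 vs LM2. For the 24 telomeric members the ranges were -1.02 to -0.85 in BrM2 vs Par, 0.098 to 0.31 in LM2 vs Par, -1.18 to -1.02 in BrM2 vs LM2 and -0.58 to -0.30 for the mean of both, and for the 10 centromeric members -0.11 to 0.30 in BrM2 vs LM2. For the 7 other genes of the stretch, of which 3 were tested without replicate 1, they were -0.27 to 0.34 in LM2 vs Par and -0.87 to -0.44 for the mean. The rest of 8p had 0.097 to 0.20 in LM2 vs Par, with 0.16 both under DESeq2's size factors in edgeR and in DESeq2. For 8q the ranges were 0.12 to 0.27 in BrM2 vs Par, -0.060 to 0.20 in LM2 vs Par, -0.019 to 0.22 in BrM2 vs LM2 and 0.016 to 0.18 for the mean, so that those of LM2 vs Par and BrM2 vs LM2 crossed 0.
The cause of these movements was not tested. Of the log2 fold changes of single members against Par, none that passed in any setting changed sign, and scaling with size factors moved the median of all tested genes by at most 0.034. With 3 libraries per line and replicate 1 the farthest from the mean of each line, the model without the block had a wide spread. A member that did not pass is therefore not shown to be unchanged, and members with under 11 counts were not tested.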
